A study of Mus musculus with 12 samples.

Results

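The 10 genes described here encode the machinery that writes, copies and removes 5-methylcytosine in DNA: Dnmt1, Uhrf1, Dnmt3a, Dnmt3b, Dnmt3l, Tet1, Tet2, Tet3, Tdg and Dppa3. They were taken by symbol from the 24421 symbols of each deposited count table, and all 10 had a row in both tables. RNA sequencing covered 12 libraries of haploid mouse embryonic stem cells (ESCs) of androgenetic origin, whose only chromosome set comes from the father, to compare Etl4 knockout (KO) with wild type (WT). All libraries had a C57BL/6 background and came from a parental line called OdG or a parental line called EG1. The OdG table held 2 WT libraries, 2 libraries of a first Etl4 KO line (line 1) and 2 of another (line 2), and the EG1 table held 3 WT libraries and 3 of an Etl4 KO. The labels name no treatment and do not describe the edit that made the KO, whether a KO line was 1 clone, or whether replicates came from separate cultures. A p-value here thus reflects how far these libraries scatter within a group, and that scatter may be technical.

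DNA methylation at CG dinucleotides is copied onto the new strand after replication by DNMT1, which UHRF1 brings to hemimethylated sites. DNMT3A and DNMT3B methylate sites anew, helped by DNMT3L, a relative without catalytic activity. The TET enzymes oxidise 5-methylcytosine, TDG cuts out the most oxidised forms for base excision repair, and DPPA3 (also called STELLA) restrains methylation, in part by keeping UHRF1 off chromatin. Mouse ESCs grown in different media differ widely in methylation, and the de novo enzymes are among the genes that differ between naive and primed cells.

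Library totals ran from 16110028 to 19706599 counts. Etl4 was lower in every KO library than in every WT library of its line, at 207 ± 3.42 CPM (counts put on the scale of an equal total for all libraries, mean ± SD, n = 2) in OdG WT, 98.2 ± 2.91 in line 1, 111 ± 3.08 in line 2, 265 ± 2.77 (n = 3) in EG1 WT and 133 ± 1.46 in EG1 KO. All 12 ESC markers had counts in every library, and their summed level lay between 8032 and 10294 CPM. The OdG WT libraries stood apart: Guf1 had 3 counts in each and Gnpda2 had 0 to 1, while the other 10 libraries had at least 587 and 231 counts of these genes. Tfap2c had 5 to 8 counts in OdG WT, 157 to 200 in line 1 and 1490 to 1965 in line 2 and EG1. Every difference between an OdG KO line and OdG WT rests on those 2 WT libraries, as no other OdG WT library was analysed here. Line 2 against line 1 does not compare levels with them, but its scaling, standard error and p-value come from a fit that holds them. The test of EG1 KO against EG1 WT does not use them. The labels do not say whether the OdG WT cells were the direct parent of the KO lines. In differences from OdG WT, an effect of the Etl4 KO and another difference between the cells thus cannot be told apart. Summed levels of 14 fibroblast feeder markers were 53.3 to 59.4 CPM in OdG WT, 37.2 to 39.0 in line 1 and 22.6 to 27.8 in the other groups; their part in the results below was not tested. Of the 14, 11 had counts in every OdG WT library, 10 in every line 1, 9 in every line 2, 7 in every EG1 WT and 6 in every EG1 KO library. Col3a1, Postn, Lum and Prrx1 had 0 counts in line 1, Prrx1 and Twist2 in line 2, Postn, Lum, Dcn and Prrx1 in EG1 WT, and Col3a1, Postn, Lum, Dcn and Lox in EG1 KO. In bulk RNA, a lower share of cells expressing a gene and less RNA per cell cannot be told apart.

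The promoters of 4 genes are shown as examples of genes that moved together and apart: Dnmt3b and Tet1 rose in both OdG KO lines, and Dnmt3l and Tet2 moved in opposite directions in them. The sequences are the 250 bases before the RefSeq transcription start (GRCm38.p6), written 5′ to 3′ on the gene's strand, with each CG dinucleotide, the target of the enzymes themselves, in capitals. They lie at chr2:153649199-153649448 (Dnmt3b, + strand), chr10:62887325-62887574 (Tet1, − strand), chr10:78042037-78042286 (Dnmt3l, + strand, the first of 3 listed starts) and chr3:133544391-133544640 (Tet2, − strand).
Dnmt3b: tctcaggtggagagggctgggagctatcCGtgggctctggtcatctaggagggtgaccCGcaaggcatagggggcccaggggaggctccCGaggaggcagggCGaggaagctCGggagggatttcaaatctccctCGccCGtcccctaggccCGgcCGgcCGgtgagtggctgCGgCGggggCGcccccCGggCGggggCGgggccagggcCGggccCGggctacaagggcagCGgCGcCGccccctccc
Tet1: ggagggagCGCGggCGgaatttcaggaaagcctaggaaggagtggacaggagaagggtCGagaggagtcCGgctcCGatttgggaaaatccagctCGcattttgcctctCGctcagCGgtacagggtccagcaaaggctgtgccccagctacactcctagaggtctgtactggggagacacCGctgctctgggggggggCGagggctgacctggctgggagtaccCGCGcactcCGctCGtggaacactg
Dnmt3l: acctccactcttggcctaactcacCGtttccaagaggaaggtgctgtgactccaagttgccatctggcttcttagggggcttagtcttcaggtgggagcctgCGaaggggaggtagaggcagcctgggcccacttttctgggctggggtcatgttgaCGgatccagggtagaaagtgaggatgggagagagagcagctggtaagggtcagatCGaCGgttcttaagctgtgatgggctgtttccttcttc
Tet2: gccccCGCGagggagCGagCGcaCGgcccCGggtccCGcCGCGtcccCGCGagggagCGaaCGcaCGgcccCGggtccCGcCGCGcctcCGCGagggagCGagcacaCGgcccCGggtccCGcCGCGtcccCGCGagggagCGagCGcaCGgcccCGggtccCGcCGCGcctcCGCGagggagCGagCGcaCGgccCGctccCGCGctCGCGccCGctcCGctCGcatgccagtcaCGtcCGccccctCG
The Tet2 window held 51 CG dinucleotides, more than in 99.9% of the 32851 RefSeq mouse promoter windows. Dnmt3b held 21 and Tet1 held 15, against a median of 6 (quartiles 2 and 16) over all windows. Dnmt3l held 5 before its first start and 4 and 3 before the others. GGGCGG, searched on both strands, was present in the Dnmt3b, Tet1 and Tet2 windows and in 32.7% of all windows. For Dnmt3l it was present before the second start and not before the first or the third. The counts do not tell which start was used, and methylation of these windows was not measured.

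In mm10 (GENCODE M21) the de novo genes span chr12:3806007-3914443 (Dnmt3a), chr2:153649450-153687730 (Dnmt3b) and chr10:78041947-78063622 (Dnmt3l), and the maintenance genes span chr9:20907209-20959888 (Dnmt1) and chr17:56303321-56323486 (Uhrf1). The TET genes span chr10:62804570-62908996 (Tet1), chr3:133463679-133545139 (Tet2) and chr6:83362373-83459084 (Tet3), with Tdg at chr10:82629828-82650799 and Dppa3 at chr6:122626410-122630272. The Tet1, Tet2 and Dnmt3l windows printed above lie inside these spans, which begin upstream of the RefSeq starts used. The counts are per gene, so isoforms are not told apart.

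Of the 10 genes, 9 passed the filter on low counts in every fit; Tdg did not. Against OdG WT, 7 of the 9 differed in line 1, 5 higher and 2 lower, where 52.8% of all genes tested did (26.8% higher, 26.1% lower). In line 2, 8 differed, 6 higher and 2 lower, against 59.9% of all genes (30.0% higher, 29.8% lower). For the mean of both lines, 5 were higher and 1 was lower, against 59.9% of all genes called (29.4% higher, 30.5% lower). Line 2 differed from line 1 in 5, of which 4 were higher and 1 was lower, with 37.8% of all genes called (18.6% higher, 19.2% lower). In EG1, 3 of the 9 were higher in KO and 0 lower, with 7.66% of all genes called (3.60% higher, 4.06% lower). The EG1 KO-minus-WT difference departed from the mean OdG one in 8 of the 9, with a positive difference in 3 and a negative one in 5, where 39.8% of all genes did (19.5% positive, 20.2% negative). The median log2 change of the 9 genes was 0.23 for the mean of both OdG lines and 0.04 for EG1, against -0.0098 and -0.0013 over all genes tested. Calls were made at an adjusted p under 0.05 in edgeR's quasi-likelihood test, and each log2 change below carries its standard error (SE).

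**Figure D1:**
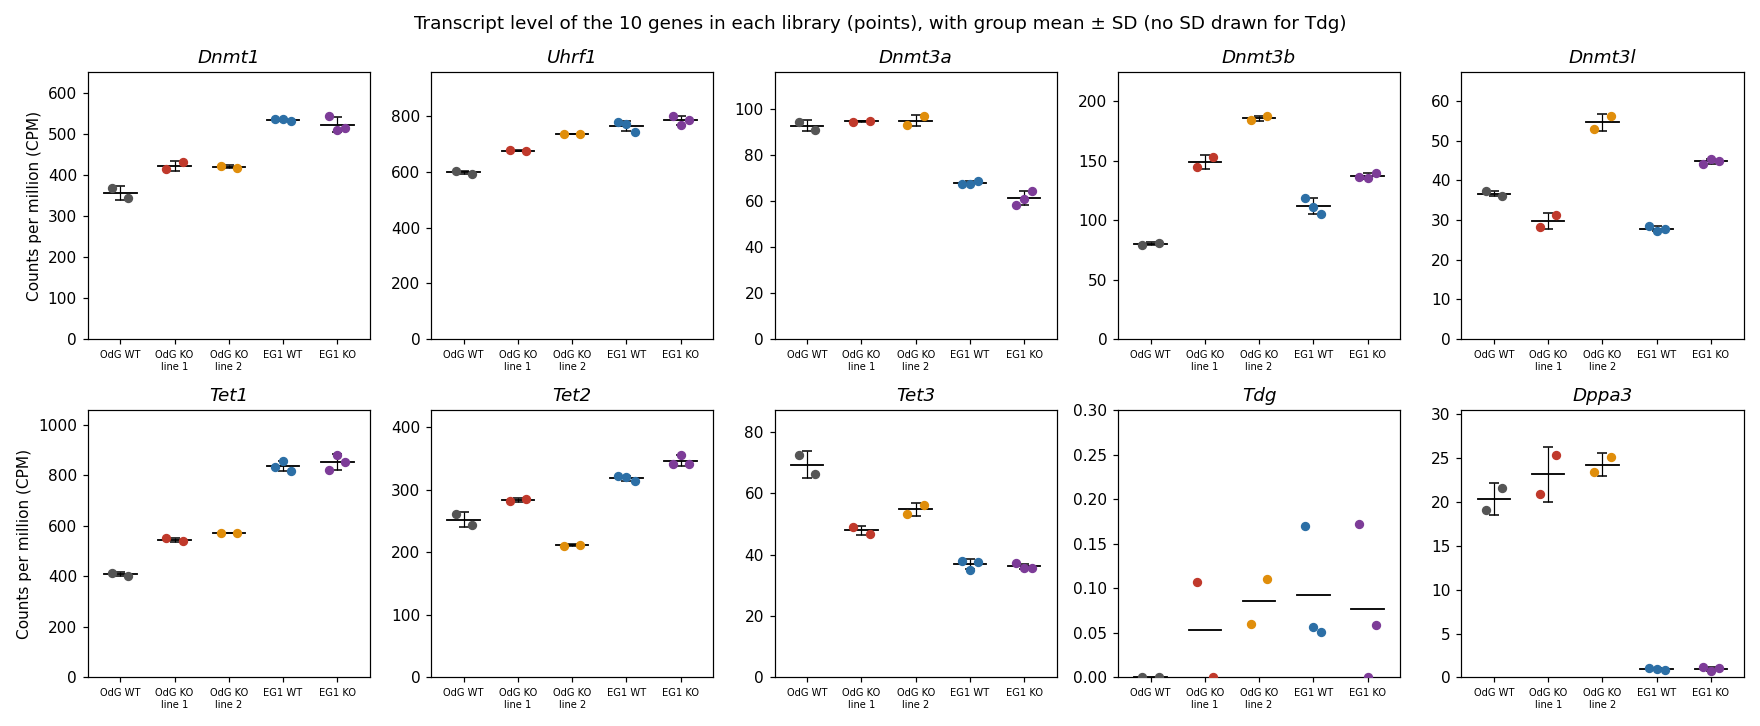
Level of each of the 10 genes (CPM, y axis, a separate scale for each gene) in each library, grouped by parental line and genotype; points are libraries and bars are group means ± SD (no SD is drawn for Tdg). Dnmt3b was lowest in the OdG WT libraries (79.6 and 81.0 CPM) and highest in line 2 (184 and 187 CPM), Dppa3 was near 1 CPM in all EG1 libraries, and Tdg was near 0 throughout.

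The maintenance pair was higher in both OdG KO lines and did not pass the test in EG1. Dnmt1, the maintenance methyltransferase, was at 369 and 344 CPM in OdG WT, 414 and 432 in line 1, and 423 and 418 in line 2. Its EG1 WT libraries had 537, 536 and 533 CPM and its EG1 KO libraries 544, 511 and 515. All OdG KO libraries lay above both OdG WT libraries, and the EG1 groups overlapped. The log2 change was 0.25 ± 0.036 (adjusted p = 1.7e-05) in line 1, 0.25 ± 0.036 (adjusted p = 1.5e-05) in line 2 and -0.03 ± 0.032 (adjusted p = 0.59) in EG1. Uhrf1, which reads hemimethylated DNA and guides DNMT1, had 603 and 594 CPM in OdG WT, 678 and 675 in line 1, and 735.2 and 735.5 in line 2. The lines did not overlap, and line 2 was higher than line 1 by 0.13 ± 0.028 (log2, adjusted p = 0.0018). Against OdG WT the log2 change of Uhrf1 was 0.18 ± 0.028 (adjusted p = 3.3e-05) in line 1 and 0.31 ± 0.028 (adjusted p = 4.5e-08) in line 2. In EG1, Uhrf1 was at 777, 772 and 744 CPM in WT and 799, 767 and 787 in KO, which overlap (log2 change 0.04 ± 0.030, adjusted p = 0.54).

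Dnmt3b, a de novo methyltransferase, rose in all 3 KO lines, while its paralog Dnmt3a passed the test in none. Dnmt3b had 79.6 and 81.0 CPM in OdG WT, 145 and 153 in line 1, and 184 and 187 in line 2. In EG1 it had 119, 111 and 105 CPM in WT and 136, 135 and 140 in KO. No KO library overlapped its WT group, and no libraries of the 5 groups overlapped, in the rising order OdG WT, EG1 WT, EG1 KO, line 1 and line 2. The log2 change was 0.90 ± 0.042 (adjusted p = 1.5e-11) in line 1, 1.22 ± 0.042 (adjusted p = 1.3e-13) in line 2 and 0.29 ± 0.042 (adjusted p = 8.7e-06) in EG1. Line 2 exceeded line 1 by 0.32 ± 0.039 (adjusted p = 4.2e-06). The OdG WT levels are not compared there, but the SE and p-value come from a fit that holds those libraries. Among all genes tested, 91.7% changed less than Dnmt3b in the mean of both OdG lines, on the absolute log2 scale. That share was 69.6% for Tet1, 67.3% for Tet3, 45.9% for Dnmt1, 45.2% for Uhrf1 and 42.4% for Dppa3. It was 28% for Dnmt3l, 7.91% for Dnmt3a and 7.15% for Tet2.

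Dnmt3a had 94.5 and 91.2 CPM in OdG WT, 94.7 and 94.9 in line 1, 93.3 and 96.9 in line 2, 67.4, 67.4 and 68.9 in EG1 WT, and 58.3, 61.2 and 64.5 in EG1 KO. Both line 1 libraries lay above both OdG WT libraries by a narrow margin, line 2 overlapped OdG WT and line 1, and every EG1 KO library lay below every EG1 WT library. The log2 change in EG1 was -0.15 ± 0.049 (adjusted p = 0.061). It passed the threshold when all 12 libraries were fitted together (adjusted p = 0.036), when libraries were scaled by their totals alone (adjusted p = 0.029) and without EG1 KO replicate 3 (adjusted p = 0.045). The range over its alternatives was 0.029 to 0.2. The log2 change of Dnmt3a was 0.03 (adjusted p = 0.53) in line 1 and 0.04 (adjusted p = 0.39) in line 2.

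Dnmt3l, the catalytically inactive partner, moved in opposite directions in the OdG lines. It had 37.2 and 36.2 CPM in OdG WT, 28.3 and 31.3 in line 1, and 53.0 and 56.1 in line 2. In EG1 it had 28.5, 27.2 and 27.8 CPM in WT and 44.2, 45.3 and 44.8 in KO. Line 1 lay below OdG WT, and line 2 and EG1 KO lay above their WT libraries, with no overlap in any of these. The log2 change was -0.30 ± 0.073 (adjusted p = 0.0022) in line 1, 0.58 ± 0.068 (adjusted p = 9.3e-07) in line 2 and 0.68 ± 0.059 (adjusted p = 5.6e-10) in EG1. The fall in line 1 did not pass without replicate 1 of that line (adjusted p = 0.055, with 0.00049 to 0.055 over all alternatives). Line 2 exceeded line 1 by 0.88 ± 0.070 (adjusted p = 2e-08), and for the mean of both lines the change from OdG WT was 0.14 ± 0.061 (adjusted p = 0.055).

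Each library's ratio of Dnmt3b to Dnmt3a, taken per kilobase of annotated exon, does not depend on how libraries were scaled. It was 2.82 ± 0.106 (mean ± SD) in OdG WT, 5.12 ± 0.187 in line 1, 6.37 ± 0.103 in line 2, 5.37 ± 0.385 in EG1 WT and 7.29 ± 0.279 in EG1 KO. The KO libraries of each line lay above the WT libraries of that line. Line 1 lay inside the range of EG1 WT (4.97 to 5.74). An annotated exon that the cells do not use lowers a level per kilobase.

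**Figure D2:**
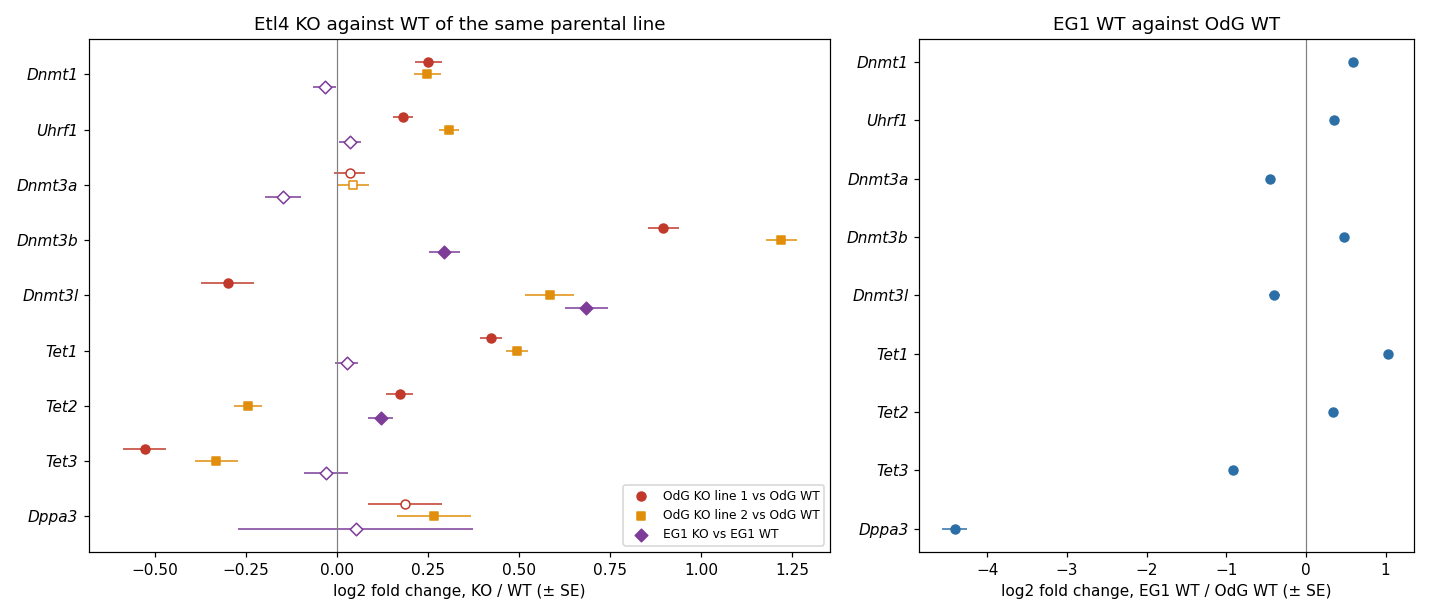
Log2 fold change (x axis, points with bars of ± SE) of the 9 genes tested (y axis), on the left for line 1 and line 2 against OdG WT and for EG1 KO against EG1 WT, and on the right for EG1 WT against OdG WT. Dnmt3b lies right of 0 in all 3, Dnmt3l lies left of 0 in line 1 and right of 0 in the others, and Dppa3 reaches -4.41 between the parental lines.

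The 3 TET genes differed in direction. Tet1 rose in both OdG KO lines: it had 414 and 403 CPM in OdG WT, 551 and 540 in line 1, and 571 and 573 in line 2. Its log2 change was 0.42 ± 0.031 (adjusted p = 3.9e-09) in line 1 and 0.49 ± 0.031 (adjusted p = 2.9e-10) in line 2, and line 2 exceeded line 1 by 0.07 (adjusted p = 0.07). The EG1 libraries were higher than all of these, at 833, 857 and 819 CPM in WT and 821, 882 and 855 in KO, and the EG1 groups overlapped (log2 change 0.03, adjusted p = 0.69). Tet3, the TET enzyme best known from the oocyte and zygote, fell in both OdG lines: it had 72.6 and 66.2 CPM in OdG WT, 49.0 and 46.8 in line 1, and 53.2 and 56.3 in line 2. Its log2 change was -0.53 ± 0.060 (adjusted p = 9.9e-07) in line 1 and -0.33 ± 0.059 (adjusted p = 0.00011) in line 2. Tet3 in EG1 was at 38.0, 35.1 and 37.7 CPM in WT and 37.2, 35.7 and 35.7 in KO, which overlap (log2 change -0.03, adjusted p = 0.83). The excess of line 2 over line 1 in Tet3, 0.20 ± 0.062 (adjusted p = 0.018), did not pass in DESeq2 (adjusted p = 0.11) or without replicate 2 of line 1 or of line 2 (adjusted p = 0.15 and 0.18), and ranged from 0.0076 to 0.18 over the alternatives.

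Tet2 split the OdG lines. Its libraries had 261 and 244 CPM in OdG WT, 282 and 286 in line 1, 211 and 213 in line 2, 322, 320 and 314 in EG1 WT, and 342, 356 and 341 in EG1 KO. Line 1 lay above OdG WT, line 2 below it, and EG1 KO above EG1 WT, with no overlap. The log2 change was 0.17 ± 0.037 (adjusted p = 0.00092) in line 1, -0.24 ± 0.038 (adjusted p = 2.7e-05) in line 2 and 0.12 ± 0.033 (adjusted p = 0.022) in EG1. Line 2 was lower than line 1 by 0.42 on the log2 scale (change -0.42 ± 0.038, adjusted p = 1.3e-07). The EG1 call did not hold when libraries were scaled by their totals (adjusted p = 0.068). It was also lost without EG1 WT replicate 1, 2 or 3 or EG1 KO replicate 2 (adjusted p = 0.072, 0.076, 0.13 and 0.11), and its lowest adjusted p over the alternatives was 0.0044.

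Within a library, Tet1 stood above Tet2 and Tet2 above Tet3 per kilobase in every group. The ratio of Tet1 to Tet2 was 1.77 ± 0.0496 in OdG WT, 2.06 and 2.14 in the libraries of line 1, 2.95 ± 0.00999 in line 2, 2.86 ± 0.0529 in EG1 WT and 2.68 ± 0.0580 in EG1 KO (mean ± SD for the other groups). The OdG KO libraries all lay above the OdG WT libraries, and line 2 lay above line 1. As group means in CPM per kilobase of annotated exon (GENCODE M21), the levels in OdG WT were 140 for Uhrf1, 48.3 for Dnmt1, 26.4 for Tet1, 22.8 for Dppa3, 15.7 for Dnmt3b, 14.98 for Tet2, 12.3 for Dnmt3l, 5.58 for Dnmt3a and 4.16 for Tet3. In EG1 WT they were 179 for Uhrf1, 72.6 for Dnmt1, 54.1 for Tet1, 21.9 for Dnmt3b, 18.9 for Tet2, 9.32 for Dnmt3l, 4.08 for Dnmt3a, 2.21 for Tet3 and 1.06 for Dppa3, so that Dppa3 was the fourth of 9 in OdG WT and the lowest of 9 in EG1 WT.

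**Figure D3:**
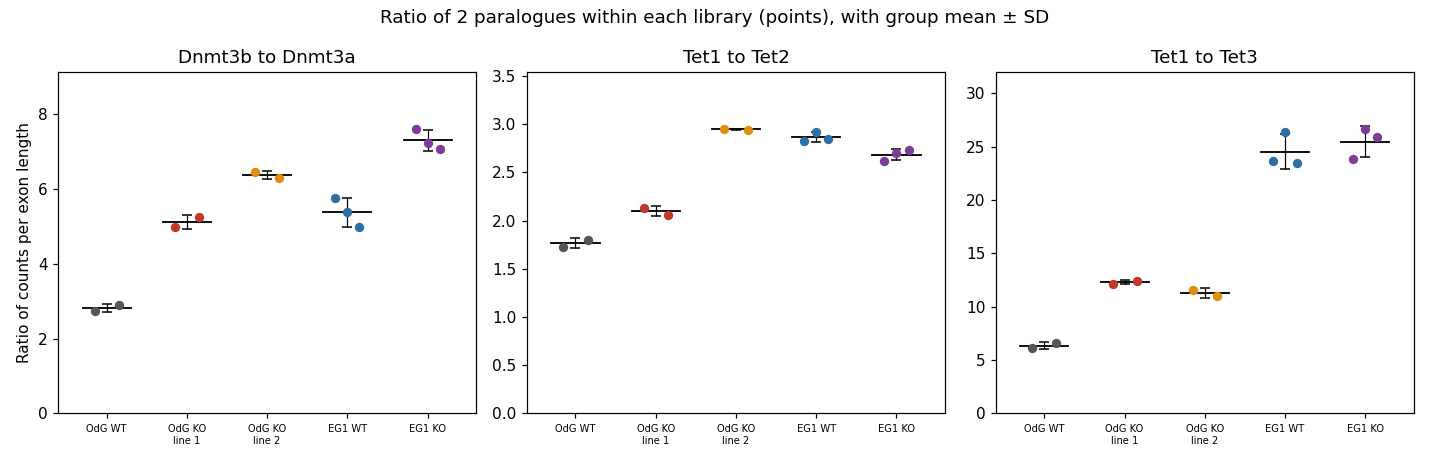
Ratios of Dnmt3b to Dnmt3a, Tet1 to Tet2 and Tet1 to Tet3 within each library, from levels per kilobase of annotated exon (y axis); points are libraries and bars are group means ± SD. Tet1 to Tet3 was 6.37 ± 0.296 in OdG WT and 24.5 ± 1.63 in EG1 WT, with lines 1 and 2 between them at 12.3 ± 0.208 and 11.3 ± 0.423.

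Tdg, the glycosylase that removes oxidised methylcytosine, had 14 counts in all 12 libraries together, at most 3 in any library, and 0 in 4 of them. A count this low does not show that the gene was silent: Gm5597, Gm9855 and Tdg-ps match the Tdg transcript at 99.3%, 99.2% and 98.7% identity over 1193, 1194 and 2968 of its 3502 bases, and a read that fits several places equally may not be counted. The one copy with a row in the tables, Gm9855, also had 0 counts in every library. Uhrf1 (Gm5648), Dnmt3b (Dnmt3c) and Dppa3 (Dppa3-ps and Gm47576) also have copies of at least 90% identity over at least 400 bases, and their counts carry that uncertainty.

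Dppa3 differed mainly between the parental lines. It had 19.0 and 21.6 CPM in OdG WT, 20.9 and 25.3 in line 1, and 23.3 and 25.1 in line 2. In EG1 it had 1.02, 0.960 and 0.865 CPM in WT and 1.15, 0.745 and 1.05 in KO, from 13 to 20 counts a library. OdG WT exceeded EG1 WT by a factor of 21.5 (95% interval 16.2 to 29.0, counting error only), with no overlap. The log2 change was 0.19 ± 0.10 (adjusted p = 0.14) in line 1, 0.27 ± 0.10 (adjusted p = 0.031) in line 2 and 0.05 ± 0.32 (adjusted p = 0.95) in EG1. Line 2 was not called against line 1 (0.08 ± 0.099, adjusted p = 0.55). Without 1 library, the change from OdG WT ran from 0.05 to 0.32 in line 1 and from 0.18 to 0.36 in line 2. For the mean of both lines that change was 0.23 ± 0.088 (adjusted p = 0.036). The call for the mean was lost in DESeq2 (adjusted p = 0.13), with the 4 KO libraries as 1 group (adjusted p = 0.16) and with scaling by library totals (adjusted p = 0.082). Leaving out OdG WT replicate 1 gave an adjusted p of 0.27, leaving out replicate 2 of line 1 gave 0.14 and leaving out replicate 2 of line 2 gave 0.1, within a range of 0.0093 to 0.27. The line 2 call was lost in DESeq2 (adjusted p = 0.12). Leaving out OdG WT replicate 1 gave 0.18 for it, and leaving out replicate 1 or 2 of line 2 gave 0.051 or 0.19, within a range of 0.0075 to 0.19.

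Between the parental WT groups all 9 genes tested differed, 5 higher and 4 lower in EG1, where 70.3% of all genes tested did (35.0% higher, 35.4% lower). Parental line and table cannot be told apart in these values. Tet1 was higher in EG1 WT by 1.03 ± 0.034 (adjusted p = 4.5e-22), Dnmt1 by 0.59 ± 0.036 (adjusted p = 3.5e-15), Dnmt3b by 0.48 ± 0.047 (adjusted p = 2.5e-10), Uhrf1 by 0.35 ± 0.031 (adjusted p = 1.5e-11) and Tet2 by 0.34 ± 0.036 (adjusted p = 1.4e-09), all on the log2 scale. Dppa3 was lower, with a change of -4.41 ± 0.16 (adjusted p = 4.1e-21), as were Tet3 (-0.91 ± 0.058, adjusted p = 9e-15), Dnmt3a (-0.45 ± 0.047, adjusted p = 6e-10) and Dnmt3l (-0.40 ± 0.065, adjusted p = 3.2e-06). For Dnmt1, Uhrf1, Tet1 and Tet3, OdG WT lay at 1 end of the 5 groups, with both OdG KO lines on the EG1 side of it. This ordering uses the OdG WT libraries that stand apart.

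Summed marker levels of other cell states differed between the groups. The summed level of 13 markers of 2-cell-like cells, a rare state resembling the early embryo, was 6.75 to 8.73 CPM in OdG WT, 11.5 to 13.9 in line 1, 43.5 to 44.0 in line 2, 192 to 208 in EG1 WT and 100 to 109 in EG1 KO. The summed level of 11 formative and primed markers was 285 to 289 CPM in OdG WT, 238 to 246 in line 1, 320 to 341 in line 2, 131 to 136 in EG1 WT and 121 to 129 in EG1 KO; Fgf5 had 0 counts in line 1. That of 11 primitive endoderm markers was 17.5 to 18.5 CPM in OdG WT, 11.1 to 11.7 in line 1, 12.7 to 13.3 in line 2, 10.1 to 10.7 in EG1 WT and 9.11 to 11.3 in EG1 KO, with Ttr at 0 in EG1, and like Tet3 it was highest in OdG WT. Like Dnmt3l, the summed formative and primed level was lowest within OdG in line 1 and highest in line 2. In EG1 KO it was not above WT. Single markers did not all follow this sum. Of 10 tested, 2 were higher and 2 lower in line 1 than in OdG WT (26.8% and 26.1% of all genes). Line 2 against line 1 gave 5 higher and 0 lower (18.6% and 19.2%), and EG1 WT against OdG WT gave 4 and 4 (35.0% and 35.4%). The part of these marker sets in the results was not tested.

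Genes whose pattern over the 12 libraries was most like that of a member were listed for Dnmt3b, Tet1 and Dppa3, whose group means spanned at least 1 on the log2 scale, among 10253 genes with a mean of at least 5 CPM. For Dnmt3b they were Rngtt (Pearson r = 0.987), Gemin5 (0.986) and Ppa1 (0.985), and for Tet1 they were G3bp1 (0.997), Nsd1 (0.997) and Birc6 (0.996). For Dppa3 they were Sp5 (0.997), Axin2 (0.996) and Gbx2 (0.996). Sp5 had 258 ± 17.6 CPM in OdG WT and 8.66 ± 0.350 in EG1 WT, Axin2 had 218 ± 2.01 and 16.3 ± 1.53, and Gbx2 had 108 to 111 and 18.7 to 19.8. The 12 points share 5 groups and 2 parental lines, so the values for Dppa3 mainly restate the difference between those lines. Tet1, G3bp1, Nsd1 and Birc6 were also higher in both EG1 groups than in every OdG group, so their correlations carry that difference too. In OdG WT and EG1 WT, mean CPM was 520 and 812 for G3bp1, 300 and 510 for Nsd1, and 255 and 516 for Birc6.

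The other genes of the pathway were taken as lists. Of 22 genes that target or regulate methylation, 16 were higher and 2 lower in the mean of both OdG KO lines (29.4% and 30.5% of all genes tested), with a median log2 change of 0.28. In EG1, 1 was higher and 0 lower (3.60% and 4.06% of all genes), with a median of 0.02. Without EG1 KO replicate 1 the count higher was 3, and with library totals 1 was lower. Zfp57, which binds methylated imprint control regions, had 202 ± 0.620 CPM in OdG WT, 285 ± 0.503 in line 1 and 340 ± 6.54 in line 2, a change of 0.63 ± 0.030 (adjusted p = 1.2e-11) for the mean of both lines. Its corepressor Trim28 rose by 0.69 ± 0.023 (adjusted p = 6.7e-14) there and by 0.12 in EG1 (adjusted p = 0.0039). Usp7, a deubiquitinase that binds DNMT1 and UHRF1, rose by 0.57 ± 0.028 (adjusted p = 1.5e-11).

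Of 9 methyl-CpG readers, 2 were higher and 6 lower in the OdG mean (median -0.18), against 29.4% and 30.5% of all genes. Line 1 had 2 higher and 3 lower (median -0.10), against 26.8% and 26.1%. Line 2 had 2 higher and 6 lower (median -0.23), against 30.0% and 29.8%. In EG1, 0 were higher and 1 lower (median -0.07), against 3.60% and 4.06% of all genes. Mbd1 rose by 0.73 ± 0.099 (adjusted p = 6.3e-06) in OdG. Zbtb4 had 9.55 ± 1.17 CPM in OdG WT, 4.33 ± 1.10 in line 1 and 3.03 ± 0.833 in line 2, a change of -1.40 ± 0.16 (adjusted p = 7.2e-07), and changed by -0.57 in EG1 (adjusted p = 0.012). The EG1 call of Zbtb4 was lost in DESeq2 (adjusted p = 0.076) and without EG1 WT replicate 2 or 3 or EG1 KO replicate 2 (adjusted p = 0.052, 0.071 and 0.055), within a range of 0.0059 to 0.076. With the 4 OdG KO libraries as 1 group, 1 reader was called higher and 1 lower. Of 15 base excision repair genes, which encode other glycosylases and the enzymes that process the sites glycosylases leave, 9 were higher and 5 lower in the OdG mean (median 0.24), against 29.4% and 30.5% of all genes. The 5 became 3 with the 4 KO libraries as 1 group. In EG1, 0 were higher and 1 lower (median 0.03), against 3.60% and 4.06%. Apex1, the main abasic site endonuclease, rose by 0.52 ± 0.049 (adjusted p = 6.3e-08). The glycosylase genes Neil2 and Neil3 changed by -1.42 ± 0.19 (adjusted p = 4.2e-06) and -0.73 ± 0.076 (adjusted p = 2.4e-07), and Neil2 by -0.85 in EG1 (adjusted p = 0.001). Neil2 changed by -1.81 in line 1 and -1.02 in line 2, and Neil3 by -0.99 and -0.48. Line 2 exceeded line 1 in both (adjusted p = 0.027 and 0.00042). Neil2 counts were low, at 108 to 117 a library in OdG WT, 25 to 39 in line 1 and 43 to 68 in line 2.

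Germline genes known to be silenced by promoter methylation separated the lines. Of 18 tested, 2 were higher and 7 lower in line 1 (median -0.20), where 26.8% and 26.1% of all genes were. In line 2, 16 were higher and 0 lower (median 1.41), against 30.0% and 29.8% of all genes. All 18 were higher in line 2 than in line 1 (median 1.59), against 18.6% of all genes. In EG1 KO, 0 of 17 were higher and 1 was lower (median -0.12), against 3.60% and 4.06% of all genes. That 1 became 2 without EG1 WT replicate 2 or EG1 KO replicate 2, with library totals and in the fit of all 12 libraries. Sycp1, a synaptonemal complex gene, had 11.5 ± 2.20 CPM in OdG WT, 12.1 ± 0.816 in line 1 and 53.6 ± 2.40 in line 2. Piwil2, a PIWI gene of the germline, had 38.1 CPM in OdG WT, 38.1 in line 1 and 99.1 in line 2, as means of 2 libraries each. In line 2, where these genes were high, Dnmt3b, Dnmt3l, Uhrf1 and Tet1 were also at their highest among the OdG groups and Tet2 at its lowest. Tet1 was not called between the KO lines. The means of Dppa3 and Dnmt3a were highest in line 2 too, with libraries that overlapped those of line 1, while those of Dnmt1 and Tet3 were not. For the mean of both lines 13 were higher and 1 lower (29.4% and 30.5% of all genes), and 2 were higher and 0 lower with the 4 KO libraries as 1 group, where Sycp1 and Piwil2 lost their calls (adjusted p = 0.16 and 0.2, the highest of their alternatives).

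**Figure D4:**
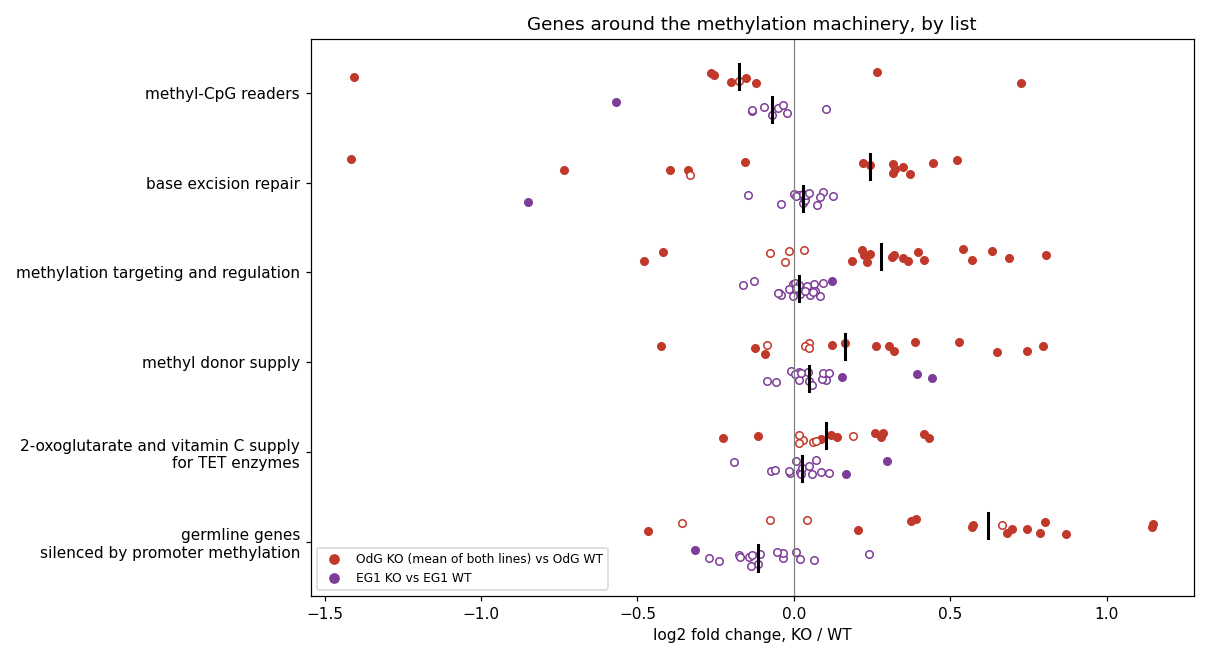
Log2 change (x axis) of each gene tested in each pathway list, for the mean of both OdG KO lines and for EG1 KO, each against its own WT; points are genes, filled where called and open where not, and black ticks are list medians. The targeting and regulation list had a median of 0.28 in OdG and 0.02 in EG1, and the germline list 0.62 and -0.12.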

How the data were processed

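Per the labels' protocols, Trizol RNA went into NEBNext Ultra libraries. The submitters' processing notes list featureCounts 1.6.4, HISAT2 2.1.0, CASAVA and DESeq2, with build mm10. Annotation and strand setting: not given in the sources used here. Both tables deposited by the authors hold raw counts for each symbol, and 0 columns were left unmatched to a sample. Where a column name occurs in both, the sample's description decided the table.

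Differences were tested with edgeR 4.0.16 in R 4.3.3 (filterByExpr, TMM scaling, quasi-likelihood test, 1 mean per group, two-sided, Benjamini-Hochberg adjustment over all genes tested), after the script was tested on simulated data. The OdG fit held 14413 genes and the EG1 fit 14016. A fit of all 12 libraries (14977 genes) gave EG1 WT against OdG WT and the difference between the KO-minus-WT changes of the parental lines. OdG KO is the mean of both lines on the log scale. CPM were put on TMM-scaled totals over all 12 libraries. Before that scaling, 1 CPM stood for 16.1 to 19.7 counts. Levels per kilobase used GENCODE M21 exon lengths. Near-identical copies were found by aligning the members' GENCODE M21 transcripts to all others. Copies of the other named genes were not searched for.

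The members, gene lists and tests were chosen with earlier results of these data known. Genes named beside the 10 members were, per list, up to 3 in each direction by adjusted p among called genes with an absolute log2 change of at least 0.5 and at least 5 CPM, and the 3 genes most correlated with each member whose group means spanned at least 1 (log2); Tdg was left out of the last step for its low counts. Genes with clone-style symbols were left out there too. Alternatives were DESeq2 1.42.0, other scalings, no filter, 1 fit of all libraries, the 4 OdG KO libraries as 1 group, a replicate block, and leaving out each library. All replicates were kept as separate samples, since counting noise did not account for their differences (chi-square 1.84 to 3.86 for each degree of freedom).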

Additional observations from a re-analysis of the deposited data

Results flagged for a closer look

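For 8 of the 9 genes tested, the KO-minus-WT change in EG1 differed from the mean change in OdG in a test of the difference itself (edgeR's quasi-likelihood test over 12 libraries), where 39.8% of all genes tested did. The difference, EG1 change minus OdG change on the log2 scale, was -0.76 ± 0.060 (SE) for Dnmt3b (adjusted p = 1.7e-11), which rose in both lines and less in EG1. It was -0.42 ± 0.043 for Tet1 (adjusted p = 3.4e-09), -0.28 ± 0.047 for Dnmt1 (adjusted p = 1.9e-05) and -0.20 ± 0.040 for Uhrf1 (adjusted p = 0.00017), which rose in OdG KO and were not called in EG1. It was 0.41 ± 0.079 for Tet3 (adjusted p = 0.00011), which fell in OdG KO, and -0.18 ± 0.062 for Dnmt3a (adjusted p = 0.022), called in neither line. It was 0.55 ± 0.083 for Dnmt3l (adjusted p = 3.4e-06) and 0.16 ± 0.047 for Tet2 (adjusted p = 0.0059), whose OdG mean averages lines that moved in opposite directions. In a comparison added after the data were seen, the Dnmt3l difference was 0.99 against line 1 alone (adjusted p = 7e-10) and 0.11 against line 2 alone (adjusted p = 0.32). Without OdG WT replicate 1 the Tet2 difference had an adjusted p of 0.083, and without OdG WT replicate 2 or line 2 replicate 2 that of Dnmt3a had 0.099 or 0.054. The Tet2 difference was -0.05 against line 1 alone (adjusted p = 0.51) and 0.37 against line 2 alone. Dppa3 gave -0.17 ± 0.30 (adjusted p = 0.7). All of these values use the OdG WT libraries that stand apart. Groups of 2 or 3 libraries were too small for the check for a library far from its group.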

How the results depend on the processing

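Of the called values of the 9 genes tested, 518 kept their direction and call under the alternatives and 22 lost the call; of those not called, 10 gained it and 11 changed sign. The number of genes called stayed within 1.5 times under every alternative run, and without 1 library it was 7 to 8 of 9 for line 1, 7 to 8 for line 2, 5 to 7 for their mean and 2 to 4 for EG1. Counts over all genes moved more. Line 2 against line 1 gave 5454 genes and 3220 in DESeq2. The OdG mean gave 8638, and 4609 with the 4 KO libraries as 1 group. EG1 gave 1074, 659 in DESeq2 and 638 to 1213 without 1 library, with 638, 672 and 658 without EG1 WT replicates 1, 2 and 3. Scaling by library totals changed the EG1 split from 505 higher and 569 lower to 332 and 698. The OdG splits moved the same way, from 3859 higher and 3757 lower to 3107 and 4478 in line 1. In line 2 they went from 4329 and 4299 to 4027 and 4605, and in the OdG mean from 4241 and 4397 to 3651 and 4954. The shares of all genes printed beside the counts thus depend on the scaling. Sign changes were among uncalled values near 0, except where named. With library totals, Dnmt3a gave -0.025 in line 1 and -0.0043 in the OdG mean, and Dnmt1 gave 0.029 for line 2 against line 1 (0.00069 with DESeq2's size factors). Without 1 library, Dnmt1 (line 2 against line 1) ran from -0.032 to 0.021, Dnmt3a from -0.020 to 0.037, Dppa3 from -0.058 to 0.22, Dppa3 in EG1 from -0.079 to 0.22, and Tet2 in the OdG mean from -0.082 to 0.014. The Tet2 difference between EG1 and OdG was -0.047 against line 1 alone. The cause of these changes was not tested. Replicate numbers did not pair the samples (correlation of deviations -0.0534 to 0.0776), and with a replicate block the counts of genes called were 7, 8, 6, 5, 3, 8 and 9 in the 7 comparisons, as without it. Among the 10 members, low counts limit Dppa3 in EG1 (13 to 20 a library) and Tdg.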

Other observations

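Genes that supply the methyl group and the TET cofactors were measured alongside. Of 17 methyl donor supply genes tested, 10 were higher and 3 lower in the mean of both OdG KO lines (median log2 change 0.16), against 29.4% and 30.5% of all genes. The 3 became 1 with the 4 KO libraries as 1 group. The lines differed: line 1 had 12 higher and 1 lower (median 0.28), against 26.8% and 26.1% of all genes. Line 2 had 8 higher and 4 lower (median 0.07), against 30.0% and 29.8%. In EG1 KO, 3 were higher and 0 lower (median 0.05), against 3.60% and 4.06% of all genes. Tdh, the threonine dehydrogenase of mouse ESCs, had 429 ± 1.41 CPM in OdG WT, 773 ± 7.42 in line 1, 712 ± 12.7 in line 2, 687 ± 1.77 in EG1 WT and 690 ± 9.49 in EG1 KO. Its OdG change was 0.80 ± 0.026 (adjusted p = 5.3e-14), and its EG1 groups overlapped. Mthfd2, a mitochondrial folate enzyme, rose in both parental lines, by 0.53 ± 0.037 (adjusted p = 1.6e-09) in OdG and by 0.39 ± 0.046 (adjusted p = 2.1e-07) in EG1. Gldc, of the glycine cleavage system, had 56.0 ± 1.43 CPM in OdG WT, 69.2 ± 0.989 in line 1 and 126 ± 1.09 in line 2, and its OdG call (change 0.75 ± 0.041, adjusted p = 6.1e-11) was lost with the 4 KO libraries as 1 group (adjusted p = 0.077, the highest of its alternatives).

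Of 16 genes for the supply of 2-oxoglutarate and vitamin C, which TET enzymes need, 8 were higher and 2 lower in OdG (median 0.10; 29.4% and 30.5% of all genes), and 2 were higher and 0 lower in EG1 (median 0.02; 3.60% and 4.06%). The 2 lower in OdG became 1 in DESeq2 and without replicate 2 of line 1 or of line 2. With the 4 OdG KO libraries as 1 group, 5 were higher and 0 lower. Among the germline genes, Rpl10l had 94.3 ± 7.69 CPM in OdG WT, 124 ± 1.02 in line 1, 157 ± 5.73 in line 2, 55.9 ± 2.14 in EG1 WT and 44.9 ± 2.88 in EG1 KO. It rose in OdG by 0.57 ± 0.044 (adjusted p = 5.4e-09) and changed by -0.32 ± 0.056 in EG1 (adjusted p = 0.00022). Near-identical copies of Rpl10l were not searched for, so reads of such a copy may be part of its counts.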
